A study of Oryza sativa Japonica Group with 17 samples.

Results

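The iM peaks of hypermethylated rice DNA at pH 5.5 were compared with those of the same kind of DNA at pH 7.0. Genomic DNA of rice seedlings (Oryza sativa, Japonica group) had been treated with M.CviPI, a methyltransferase that acts on C in a GpC context, with 8 units of enzyme and 640 µM of the methyl donor SAM for 4 µg of DNA at 37 °C. The purified DNA was fragmented, denatured and re-associated in vitro, so that folding took place on naked DNA without chromatin, and 5 µg of it was precipitated with 3 µg of iMab, an antibody that recognises iMs. The comparison used 7 of the 17 libraries of the series: 2 iMab IP libraries and 1 IgG library at pH 5.5, 2 iMab IP libraries and 1 IgG library at pH 7.0, and 1 input library of hypermethylated DNA that served both pH. The other conditions, used here only for comparison, were DNA from seedlings given 80 µM zebularine, a DNA methyltransferase inhibitor, at pH 5.5 and at pH 7.0 (demethylated DNA), and DNA with unaltered methylation at pH 7.0 (CK). The labels of the IP libraries of demethylated DNA at pH 7.0 point to a list of hypermethylated DNA. Values for that condition here rest on the list named for it.

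An iM is a structure of 4 strands that folds from C-rich DNA. It is held together by pairs of cytosines that share a proton, and acidic pH, which supplies that proton, favours folding. Methyl groups on cytosine change the stability of the fold, and the size and direction of that effect depend on the sequence and on where the methyl groups lie. iMab pulls down fragments that hold a folded iM, and the peaks of sequenced fragments mark where in the genome these fragments came from.

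A peak entered the set of a pH when it had been called against input and overlapped by at least 1 bp a peak called against IgG at the same pH. These sets, here called common peaks, held 82718 peaks at pH 5.5 and 67787 peaks at pH 7.0, together 150505 of the 354589 common peaks of all 5 conditions. A common peak was shared when it overlapped a common peak of the other pH by at least 1 bp, and specific otherwise. The 2 IP libraries of a pH had been merged before peaks were called. There was therefore 1 list for each pH and control, no replicate error could be given, and no test was run. Each value describes merged libraries, and the spread over the 12 chromosomes or a 95% Wilson interval (counting error only) is given in its place. Neither is a biological error.

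Coverage was recovered from the peaks. The background coverage, the genome-wide mean of IP fragments over a base that the peak caller used, was 9.35 at pH 5.5 and 11.4 at pH 7.0. Coverage depends on both the number and the length of the fragments, so it does not give the number of fragments sequenced. The lists of pH 5.5 were the longer ones, with 92099 input-called and 90964 IgG-called peaks. Those of pH 7.0 had 71294 input-called and 71568 IgG-called peaks. The lists also differed in the narrowest peak they held, which measured 153 bp in both pH 5.5 lists and 199 bp in both pH 7.0 lists. The smallest gap between neighbouring peaks was 154 bp at pH 5.5 and 200 bp at pH 7.0.

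Hypermethylated DNA had more peaks specific to pH 5.5, and the narrow peaks among them outnumbered the surplus. There were 23456 peaks specific to pH 5.5, which is 28.4% of the pH 5.5 set, and 13980 peaks specific to pH 7.0, which is 20.6% of the pH 7.0 set. The log2 ratio of the numbers of specific peaks was 0.75 with an SD of 0.09 over 12 chromosomes, and it was above 0 on 12 of 12 chromosomes. Of the pH 5.5-specific peaks, 9839 were narrower than 199 bp, which is below the narrowest pH 7.0 peak. The other 13617 were fewer than the 13980 peaks specific to pH 7.0. When both sets were restricted to peaks of at least 199 bp before they were compared, the specific peaks were 13617 for pH 5.5 and 18665 for pH 7.0, a log2 ratio of -0.45. In that setting a pH 7.0 peak whose pH 5.5 partner was narrower than 199 bp also became specific. With the 20000 peaks of highest −log10 q-value from each set, the log2 ratio was -0.08. Both sets then held the same number of peaks by construction, which holds this ratio near 0. The direction of the surplus thus changed when only peaks of at least 199 bp were admitted.

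**Figure D1:**
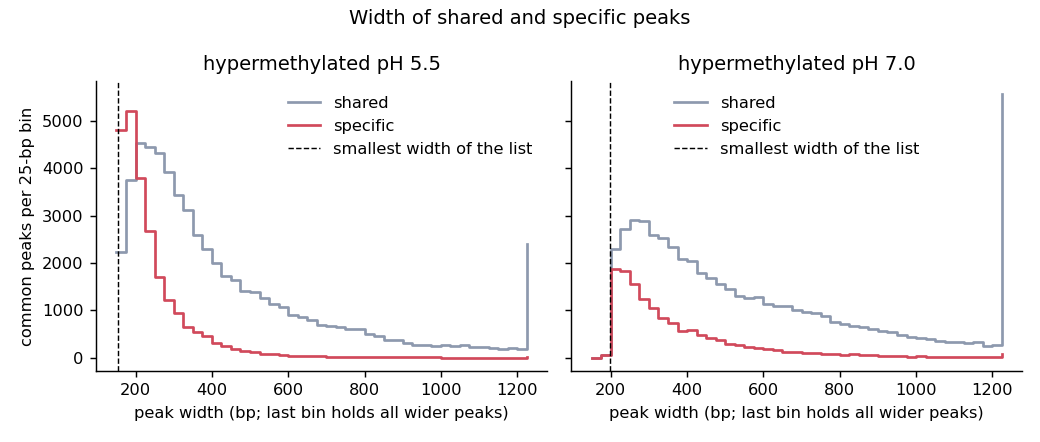
Number of shared and specific common peaks in each 25-bp bin of width (x axis, bp) in a left panel for pH 5.5 and a right panel for pH 7.0; the dashed lines mark the smallest width of each list, 153 bp and 199 bp. The specific peaks of pH 5.5 pile up near the smallest width, with a median of 210 bp against 348 bp for shared peaks, and those of pH 7.0 have a median of 310 bp against 489 bp for shared peaks.

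The narrow pH 5.5 peaks were mostly specific. Of the pH 5.5 peaks under 199 bp, 62.9% (62.1 to 63.6) were specific, whereas 20.3% (20.0 to 20.6) of the wider ones were, a share next to the 20.6% at pH 7.0. The narrow specific peaks were not much weaker than the wide ones. Their median fold enrichment, in which the IP fragments at the summit are divided by lambda, the level of the control around it, was 3.19, and that of the wide specific peaks was 3.34. The median −log10 q-value was 8.16 in the narrow and 9.19 in the wide specific peaks.

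Specific peaks were weak and narrow at both pH. Their median fold was 3.27 at pH 5.5 and 3.28 at pH 7.0, whereas shared peaks had a median fold of 4.72 at pH 5.5 and 5.31 at pH 7.0. At their summits, specific peaks had a median of 37 fragments at pH 5.5 and 43 at pH 7.0, which is 3.96 and 3.76 times the background coverage of each pH. Shared peaks had 52 fragments at pH 5.5 and 71 at pH 7.0. When the peaks of each pH were ranked by fold and cut into deciles, the specific share was lower in each decile than in the one before. At pH 5.5 it was 59.1% in the first, 30.96% in the fifth and 1.87% in the last decile. At pH 7.0 it was 49.6%, 21.3% and 0.811% in the same deciles. Fold is part of what makes a peak callable at either pH, so these shares describe the sets.

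Most specific peaks had no trace in the lists of the other pH. At pH 5.5, 84.3% (83.8 to 84.8) of the specific peaks overlapped no peak of either pH 7.0 list, 8.52% overlapped a pH 7.0 peak that had been called against input alone, and 7.17% overlapped one called against IgG alone. At pH 7.0, 70.1% (69.3 to 70.9) of the specific peaks overlapped no peak of either pH 5.5 list, while 21.8% overlapped an input-called pH 5.5 peak and 7.98% an IgG-called one. The lists differed in the peaks they could offer. The pH 5.5 list held 92099 input-called peaks, of which 82718 were common, and the pH 7.0 list held 71294, of which 67787 were common. The difference of 14.2 points in the share without a peak fell to 2.95 points with all input-called peaks. The part of list size in these shares was not tested. At both pH, the specific peaks that met a peak of the other pH called against input alone were the stronger ones. At pH 7.0 their median fold was 4.02 and their median −log10 q-value was 15.6, against 3.14 and 9.12 for those with no pH 5.5 peak at all. At pH 5.5 the values were 3.85 and 12.5, against 3.21 and 8.44. These positions carried a peak of the other pH over input that had no IgG-called partner. Within 100 bp of a common peak of the other pH lay 127 specific peaks at pH 5.5 and 43 at pH 7.0. Neighbouring peaks of a list were at least 154 bp apart at pH 5.5 and 200 bp at pH 7.0. This limits how near a specific peak can lie to a locus with a shared peak. The distance also does not show how near a position came to being called at the other pH.

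The strongest specific peaks stood in a few places. Among 8065 pH 5.5-specific peaks with a −log10 q-value of at least 10 and no peak in either pH 7.0 list, the highest fold was 13.04, at 19826075 to 19826407 on chromosome 7 (MSU v7.0). This peak was 333 bp wide, with 134 fragments at its summit, and lay 1055 bp from the nearest shared peak. The next were both on chromosome 2 and less than 25 kb apart. One, from 13725047 to 13725235, was 189 bp wide and had a 12.97-fold enrichment and 167 fragments. The other, from 13748979 to 13749416, was 438 bp wide and had a 12.7-fold enrichment and 164 fragments. The peak on chromosome 7 overlapped a common peak of demethylated DNA at pH 7.0, and the pair on chromosome 2 overlapped none of CK or demethylated DNA.

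At pH 7.0, a single locus exceeded all other peaks of the comparison. Among 4497 pH 7.0-specific peaks that passed the same criteria, the highest fold was 1417, in a peak of 1924 bp from 28719468 to 28721391 on chromosome 2. The second highest, 343.1, was in a peak of 732 bp from 28716292 to 28717023 on the same chromosome. The third was 35.6, in a peak of 799 bp from 9783232 to 9784030 on chromosome 4. The highest fold of any other class was 110.1, among shared peaks at pH 5.5. The chromosome 2 locus was embedded in shared peaks, with the nearest at 674 bp and 309 bp from the specific peaks. None of the 3 overlapped a common peak of CK or demethylated DNA. Whether both IP libraries of pH 7.0 carried the locus cannot be read from a merged list.

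Peaks covered all chromosomes at both pH, and parts toward the chromosome ends mostly held the higher shares of specific peaks. Common peaks numbered 208.2 to 238.6 per Mb over the 12 chromosomes at pH 5.5 and 171.1 to 194.4 per Mb at pH 7.0. Specific peaks took 26.7% to 30.5% of the peaks of a chromosome at pH 5.5, with an SD of 1.29 points over 12 chromosomes, and 18.5% to 22.5% at pH 7.0, with an SD of 1.19 points. Chromosome 3 had the highest share at both pH. The lowest share was on chromosome 10 at pH 5.5 and on chromosome 12 at pH 7.0. The log2 ratio of specific peaks was largest on chromosome 11, at 0.94, and smallest on chromosome 5, at 0.62.

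Within chromosomes, the parts dense in peaks had low specific shares. When each chromosome was cut into 20 equal parts, the density was highest in the eighth part at both pH, with 258.5 peaks per Mb at pH 5.5 and 210.2 at pH 7.0. It was lowest in the nineteenth part, with 184.2 peaks per Mb at pH 5.5 and 151.2 at pH 7.0. The specific share at pH 5.5 was 25.3% in the seventh part and 31.3% in the last part, at the right end. At pH 7.0 it was 18.0% in the eleventh part and 24.4% in the eighteenth part. The outermost 100 kb of the chromosomes held 147 pH 5.5-specific peaks (26.3% of the peaks there) and 78 pH 7.0-specific peaks (17.9%), which is below the share within 5 Mb of the ends, at 30.3% and 21.5%.

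**Figure D2:**
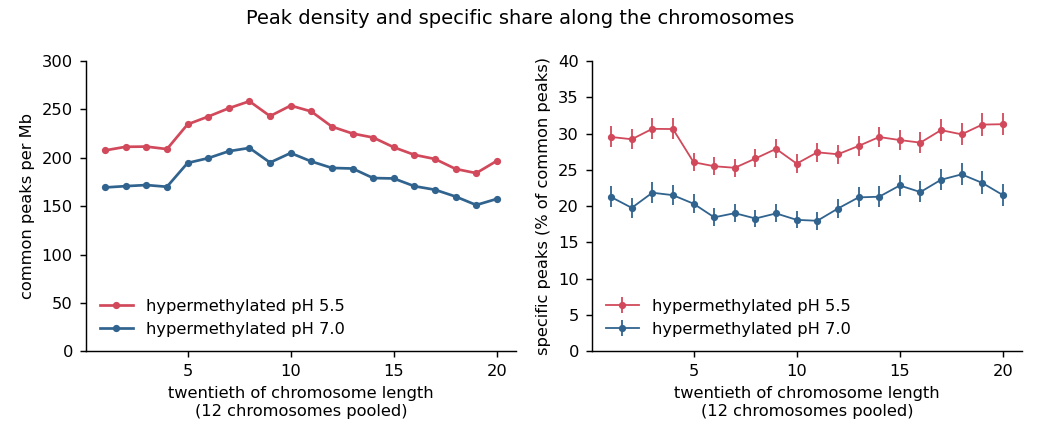
Common peaks per Mb (left) and specific peaks as a percentage of common peaks (right; bars are 95% Wilson intervals, counting error only) in 20 equal parts of each chromosome, pooled over 12 chromosomes, from the left to the right end. At both pH the density is highest in the eighth part, where the specific share is 26.6% at pH 5.5 and 18.3% at pH 7.0.

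A similar pattern was found when windows were ranked by the peaks of CK. This ranking is not independent of the classes. A common peak of CK was overlapped by 71.8% of shared and 19.3% of specific peaks at pH 5.5. At pH 7.0 the shares were 74.1% and 23.7%. Windows rich in CK peaks are thus expected to be rich in shared peaks. The part of this overlap in the specific shares was not tested. The genome was divided into 3739 windows of 100 kb, and the windows were ranked by their number of common peaks in CK at pH 7.0. In the decile of windows with the fewest CK peaks (0 to 8), 40.2% (38.9 to 41.5) of the pH 5.5 peaks and 27.1% (25.8 to 28.4) of the pH 7.0 peaks were specific. In the decile with the most CK peaks (22 to 43), 17.9% (17.3 to 18.6) of the pH 5.5 peaks and 16.3% (15.6 to 16.99) of the pH 7.0 peaks were specific. Shared pH 5.5 peaks numbered 3328 in the first decile and 10003 in the last, while pH 5.5-specific peaks numbered between 2185 and 2508 in all 10 deciles. Specific peaks of pH 7.0 numbered 1175 in the first decile and 1668 in the last. The difference of 22.3 points between the first and the last decile at pH 5.5 had an SD of 2.71 points over 12 chromosomes. With peaks of at least 199 bp alone it was 18.3 points.

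Across the 100-kb windows, the number of common peaks at pH 5.5 went with that at pH 7.0 (Pearson r = 0.80, Spearman rho = 0.77, n = 3739 windows). For the numbers of specific and shared peaks the coefficients were r = -0.03 and rho = -0.02 at pH 5.5, and r = 0.11 and rho = 0.07 at pH 7.0. For the specific peaks of the 2 pH they were r = -0.11 and rho = -0.11, far below those of the common peaks. Windows share libraries, and neighbouring windows share base composition, so these coefficients are descriptions. A window held a median of 6 pH 5.5-specific peaks and 3 pH 7.0-specific peaks. The pH 5.5-specific peaks were the more numerous in 71.1% of windows, and the pH 7.0-specific peaks in 19.6%.

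Specific peaks of pH 5.5 were crowded at a few loci. The largest surplus was in the window from 13600001 to 13700000 on chromosome 2, with 34 specific peaks at pH 5.5 and 0 at pH 7.0. It held 56 common peaks at pH 5.5, the highest number of all windows at that pH, and 22 at pH 7.0. The next was on chromosome 1, from 16800001 to 16900000, with 25 and 0. A surplus of 23 followed in windows of 3 chromosomes. These were from 16900001 to 17000000 on chromosome 1 (23 and 0), from 12100001 to 12200000 on chromosome 7 (25 and 2) and from 12000001 to 12100000 on chromosome 12 (26 and 3). The 2 strongest pH 5.5-specific peaks on chromosome 2 described above lay within 50 kb of the first of these windows. A surplus of 15 or more pH 5.5-specific peaks was found in 14 windows on 8 chromosomes, and a surplus of 15 or more pH 7.0-specific peaks in 0 windows.

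**Figure D3:**
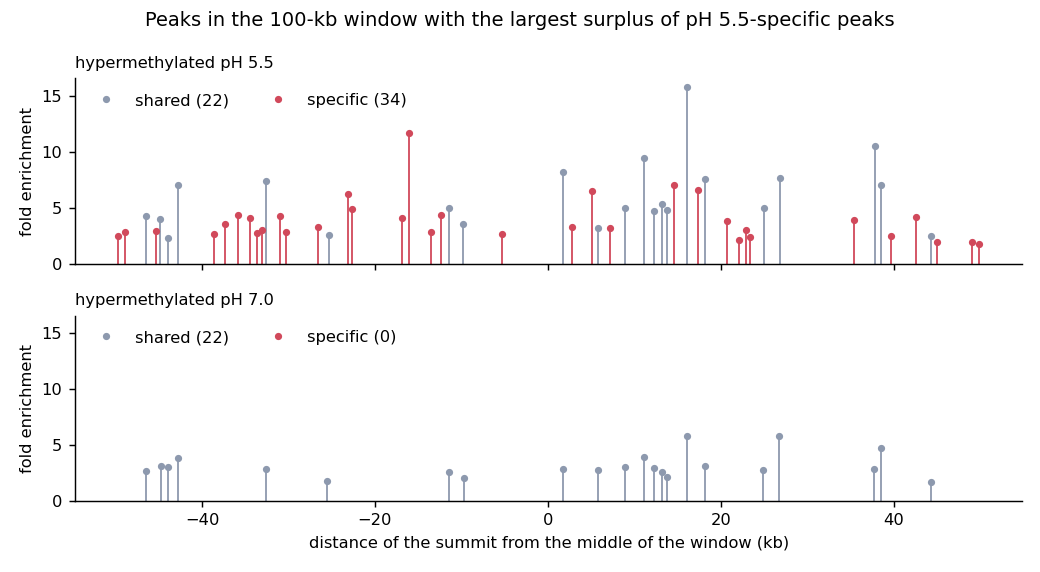
Fold enrichment (y axis) of each common peak in the 100-kb window of chromosome 2 with the largest surplus, at pH 5.5 (top) and pH 7.0 (bottom), against the distance of its summit from the middle of the window (kb). At pH 5.5 the window holds 34 specific and 22 shared peaks, and at pH 7.0 it holds 22 shared peaks, 21 of whose 22 pH 5.5 partners have the higher fold.

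The window with the largest surplus was then taken on each chromosome, a selection made after the values were seen. These 12 windows held 249 pH 5.5-specific peaks and 25 pH 7.0-specific peaks, and 185 of the 249 were at least 199 bp wide. Their shared peaks also leaned to pH 5.5. In 185 one-to-one pairs there, 71.4% (64.5 to 77.4) had the higher fold at pH 5.5, with a median log2 fold ratio of 0.50, against -0.08 in the pairs outside. The log2 fold ratio was above 0 in 9 of the 12 windows. They held 1 to 17 common peaks of CK, against a median of 14 over all windows, and those on chromosomes 4 and 11 were not below that median. Of their pH 5.5-specific peaks, 6.43% overlapped a common peak of CK, 9.64% one of demethylated DNA at pH 5.5 and 18.9% one of demethylated DNA at pH 7.0. Over all pH 5.5-specific peaks the shares were 19.3%, 27.8% and 41.6% in the same order.

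The local control level was raised in several of these windows. On chromosome 2 the median lambda, the control level at the summits, was 16.01 fragments at pH 5.5 and 28.4 at pH 7.0, against a background of 9.35 and 11.4. On chromosome 6, from 15400001 to 15500000, it was 36.3 fragments at pH 5.5 and 76.8 at pH 7.0. In 6 windows, on chromosomes 3, 4, 5, 7, 8 and 11, it was below 11 fragments at pH 5.5. The median log2 fold ratio of shared pairs in these 6 ran from -0.18 on chromosome 8 to 0.38 on chromosome 5. In the other windows it ran from 0.18 on chromosome 1 to 0.83 on chromosome 2. A raised control level marks positions with more fragments than the genome average. Its part in the surplus and in the fold ratios was not tested. No annotation of centromeres or repeats was used, so these loci are given by position only.

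Windows with a surplus at pH 7.0 were milder and lay at background control level. They were from 11800001 to 11900000 on chromosome 5, with 3 specific peaks at pH 5.5 and 14 at pH 7.0, from 7100001 to 7200000 on chromosome 10, with 3 and 14, and from 16400001 to 16500000 on chromosome 8, with 5 and 15. Here shared pairs leaned to pH 7.0. The median log2 fold ratio was -0.62 in the window on chromosome 5, -0.41 in that on chromosome 10 and -0.48 in that on chromosome 8. The windows on chromosomes 5 and 10 were rich in CK peaks, with 25 and 33.

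In the full sets, neighbouring peaks were closer at pH 5.5. Peaks were also denser there, with 221.6 per Mb against 181.6 per Mb at pH 7.0. The part of this density in the gaps was not tested. The median gap, from the end of a peak to the start of the next, was 2368.5 bp at pH 5.5 and 2942 bp at pH 7.0, and the quartiles were 826 and 5689 bp at pH 5.5, against 941 and 6817 bp at pH 7.0. The difference of -573.5 bp had an SD of 121 bp over 12 chromosomes. With peaks of at least 199 bp alone, the difference was -21 bp, and with the top 20000 peaks of each set it had the opposite direction, at 1407 bp. The largest stretch without a peak was the same at both pH, from 12328836 to 12554972 on chromosome 11 at pH 5.5 (226137 bp) and from 12323660 to 12554784 at pH 7.0 (231125 bp). Gaps between neighbours depended on their class at pH 5.5. They had a median of 1816 bp between 2 shared peaks and 2972 bp between 2 specific peaks. At pH 7.0 they had a median of 2806 bp between 2 shared peaks and 3063 bp between 2 specific peaks.

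In the full sets, slightly more of the pH 5.5 peaks stood in groups, and the pH 5.5 set was also the denser one along the genome. When peaks at most 1 kb apart were joined, 48.5% (48.1 to 48.8) of the peaks at pH 5.5 and 44.7% (44.4 to 45.1) at pH 7.0 fell into groups of 2 or more, in 15888 and 12465 groups. The difference was 3.72 points with an SD of 1.03 over 12 chromosomes, and it turned to -0.49 points with peaks of at least 199 bp alone and to -7.35 points with the top 20000 peaks of each set. It was 6.42 points with all input-called peaks, 5.73 points with a joining distance of 2000 bp and 2.09 points with a −log10 q-value of at least 5. At pH 5.5, shared peaks were grouped more often (52.5%) than specific peaks (38.4%). At pH 7.0 the shares were 45.8% of shared and 40.8% of specific peaks. A pH 7.0 peak that overlapped several pH 5.5 peaks adds several close shared peaks at pH 5.5. There were 5143 pH 7.0 peaks that overlapped 2 or more. Where they overlapped 2, the gap between the 2 had a median of 244 bp. The part of such peaks in the grouped shares was not tested. Groups of specific peaks alone were rare, with 6.69% of groups at pH 5.5 and 3.63% at pH 7.0. Mixed groups made up 36.8% at pH 5.5 and 33.98% at pH 7.0.

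The largest groups held shared peaks only. At pH 5.5 it had 15 peaks, from 29915924 to 29938582 on chromosome 5. Their folds were 2.99 to 21.2 and their median gap was 361.5 bp. At pH 7.0 it had 11 peaks, from 25059151 to 25073613 on chromosome 2, and their folds were 1.90 to 6.76. The 15 peaks on chromosome 5 met 6 common peaks of pH 7.0, and the 11 peaks on chromosome 2 met 13 common peaks of pH 5.5. The first of these loci thus had the same stretch cut into more peaks at pH 5.5. Longer runs of specific peaks were found at pH 5.5. The longest had 12 neighbouring specific peaks in 41.1 kb, from 13372906 to 13414039 on chromosome 12, with folds of 1.37 to 9.36 and 0 common peaks of pH 7.0. At pH 7.0 the longest had 7 peaks, a length reached by 4 runs, the first of them from 29573394 to 29631534 on chromosome 2. Runs of 5 or more numbered 235 at pH 5.5 and 30 at pH 7.0. Specific peaks also made up more of the set at pH 5.5, with 28.4% against 20.6% at pH 7.0. The part of these shares in the runs was not tested.

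Most specific peaks had a shared peak a few kb away. The median distance of a specific peak to the nearest shared peak of its pH was 2242 bp at pH 5.5, against 1972 bp at pH 7.0, a difference of 270 bp with an SD of 119 bp over 12 chromosomes. The difference kept its sign under all alternatives and was 107 bp between summits, 123 bp with peaks of at least 199 bp alone, 149 bp with the whole input-called lists and 3365 bp when each set was reduced to its top 20000 peaks. Shared peaks were nearer to each other, with a median of 1225 bp at pH 5.5, against 1516 bp at pH 7.0. Pieces of 1 broad peak count as neighbours here. Specific peaks within 1 kb of a shared peak made up 27.1% (26.5 to 27.7) at pH 5.5 and 32.3% (31.6 to 33.1) at pH 7.0, whereas 44.2% of shared peaks at pH 5.5 and 39.0% at pH 7.0 had another shared peak within 1 kb. Nearly all specific peaks had a shared peak within 10 kb, with 93.7% at pH 5.5 and 93.8% at pH 7.0. The most isolated ones were 48811 bp away at pH 5.5 and 46085 bp away at pH 7.0. The nearest other specific peak was farther, at a median of 4923 bp at pH 5.5, against 8311 bp at pH 7.0. Specific peaks numbered 23456 at pH 5.5 and 13980 at pH 7.0, and shared peaks 59262 and 53807. The part of these numbers in the distances was not tested.

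Shared peaks were broken up more often at pH 5.5. Of the shared peaks, 48163 formed one-to-one pairs, in which each peak overlapped 1 peak of the other pH. There were 283 pH 5.5 peaks that overlapped 2 or more pH 7.0 peaks, whereas 5143 pH 7.0 peaks overlapped 2 or more pH 5.5 peaks. The pH 7.0 peaks that met several pH 5.5 peaks were wide and strong, with a median width of 1247 bp and a median fold of 7.38, against 450 bp and 5.10 in one-to-one pairs. In the 4613 that met 2 pieces, the pieces had a median gap of 244 bp and their summits were a median of 664 bp apart. The pH 7.0 summit fell inside a piece in 97.9% of them, a median of 21 bp from the nearer pH 5.5 summit.

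The smallest gap in the pH 7.0 list was 200 bp, and 30.9% of these pairs of pieces were no farther apart than that. When pH 5.5 peaks were joined across gaps of up to 200 bp, 3676 pH 7.0 peaks still overlapped 2 or more pH 5.5 peaks, against 468 pH 5.5 peaks that overlapped 2 or more at pH 7.0. The extreme case was a pH 7.0 peak of 9717 bp on chromosome 5, from 29924698 to 29934414, whose fold was 9.10. It was met by 7 pH 5.5 peaks of 283 to 1833 bp, with folds of 7.59 to 18.8, all within the largest pH 5.5 group described above.

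Summits of one-to-one pairs stayed in place. The signed shift of the summit, pH 5.5 minus pH 7.0, had a median of 0 bp, with 48.6% of summits to the right and 48.6% to the left. The absolute shift had a median of 21 bp with an SD of 1.01 bp over 12 chromosomes, and quartiles of 7 and 63 bp. It was at most 10 bp in 33.2% of pairs, at most 50 bp in 70.8% and over 500 bp in 2.09%. The shift was larger in weak and in wide peaks. Its median was 53 bp in the decile of pairs with the lowest fold and 13 bp in the decile with the highest. It was 17 bp in the decile with the narrowest pH 7.0 peaks and 46 bp in the decile with the widest. The 3 largest shifts among pairs with a −log10 q-value of at least 10 at both pH were 3000, 2843 and 2691 bp, on chromosomes 5, 12 and 7. The first 2 lay in peaks that measured 4071 and 4821 bp at pH 5.5, against 3760 and 4854 bp at pH 7.0. The third joined a pH 5.5 peak of 713 bp with a pH 7.0 peak of 3633 bp.

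Shared peaks were mostly narrower at pH 5.5, where the list also allowed narrower peaks. In one-to-one pairs the median width was 346 bp at pH 5.5 and 450 bp at pH 7.0, and the pH 5.5 peak was the wider in 24.7% (24.3 to 25.04) of pairs. The median log2 width ratio was -0.23 with an SD of 0.01 over 12 chromosomes, and -0.20 with peaks of at least 199 bp alone. Both edges moved inwards by a median of 27 bp. The pH 5.5 peak lay inside the pH 7.0 peak in 51.2% of pairs and the pH 7.0 peak inside the pH 5.5 peak in 11.2%. The smallest widths of the lists had a log2 ratio of -0.38. Divided by the smallest width of its list, the median width was 2.26 at both pH, while the median log2 ratio of pairs became 0.14. The direction of the width difference thus depended on this scale, and the part of the limits in it was not tested. Widths of the pairs went together (Pearson r of log2 width 0.74, Spearman rho 0.68, n = 48163 pairs).

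**Figure D4:**
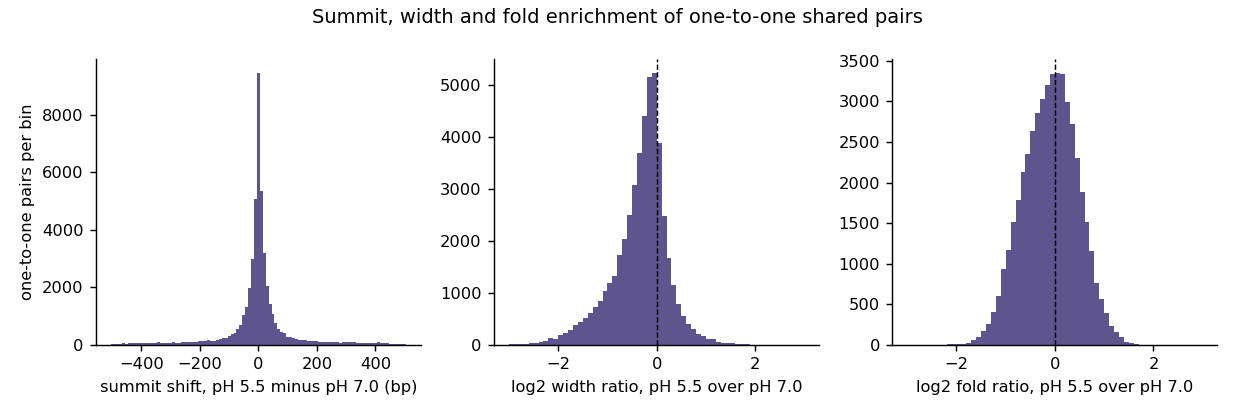
Histograms over 48163 one-to-one pairs of the summit shift in bp (pH 5.5 minus pH 7.0, 10-bp bins; the longest shifts are not drawn), the log2 width ratio and the log2 fold ratio (pH 5.5 over pH 7.0, bins of 0.1). Shifts centre on a median of 0 bp, width ratios lie below 0 with a median of -0.23, and fold ratios have a median of -0.08.

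The strength of shared peaks differed little in the middle and widely at single loci. The median fold in one-to-one pairs was 4.75 at pH 5.5 and 5.10 at pH 7.0, and the median log2 fold ratio was -0.08 with an SD of 0.03 over 12 chromosomes. The ratio of summit pileup to background coverage had a median log2 ratio of -0.05. The fold was at least 2 times higher at pH 5.5 in 964 pairs (2%) and at least 2 times lower in 2589 pairs (5.38%). Folds went together over the pairs (Pearson r of log2 fold 0.69, Spearman rho 0.67). Pairs that were 2 times lower at pH 5.5 were also narrower there, with a median log2 width ratio of -0.58, whereas pairs that were 2 times higher were wider, with 0.21. The 2 kinds of pairs also differed in the other conditions. Of the pairs higher at pH 5.5, 49.5% (46.3 to 52.6) overlapped a common peak of demethylated DNA at pH 5.5, against 84.1% (82.6 to 85.4) of the pairs lower at pH 5.5 and 72.6% (72.2 to 73.01) of the other pairs. With CK the shares were 61.5% of the higher, 79.6% of the lower and 71.995% of the other pairs. With demethylated DNA at pH 7.0 they were 87.9%, 95.3% and 89.7% in the same order.

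The 3 pairs with the highest ratios, among 33840 with a −log10 q-value of at least 10 at both pH, were on chromosomes 2, 8 and 9. On chromosome 2, from 13687693 to 13687919, the fold was 10.5 at pH 5.5 and 2.86 at pH 7.0. On chromosome 8, from 12992767 to 12993017, it was 37.5 at pH 5.5 and 11.3 at pH 7.0. On chromosome 9, from 2767468 to 2767728, it was 11.6 at pH 5.5 and 3.49 at pH 7.0. The first and the last of them stood inside the windows with the largest surplus of pH 5.5-specific peaks on their chromosomes. The lowest ratios were larger in size. On chromosome 1, from 38271946 to 38272247, the fold was 1.93 at pH 5.5 and 22.9 at pH 7.0. On chromosome 2, from 14267156 to 14267681, it was 2.80 at pH 5.5 and 24.5 at pH 7.0. On chromosome 12, from 5632967 to 5633625, it was 3.89 at pH 5.5 and 31.6 at pH 7.0. Lambda at the pH 5.5 summits of these 3 pairs was 110.1, 55.01 and 21.4 fragments, above the background of 9.35. At the pair of highest ratio on chromosome 2 it was also raised, at 30.3 fragments at pH 5.5 and 53.1 at pH 7.0. On chromosome 9 it was 22.4 fragments at pH 5.5 and 27.3 at pH 7.0. The part of the control level in these ratios was not tested.

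The specific peaks of the 2 pH differed most in their overlap with demethylated DNA at pH 5.5. Of the pH 5.5-specific peaks, 27.8% (27.2 to 28.4) overlapped a common peak of demethylated DNA at pH 5.5, whereas 56.2% (55.4 to 57.0) of the pH 7.0-specific peaks did. The difference of -28.4 points had an SD of 4.04 over 12 chromosomes and was -31.0 points with peaks of at least 199 bp alone. Shared peaks gave 71.3% at pH 5.5 and 74.4% at pH 7.0. With demethylated DNA at pH 7.0, the overlap was 41.6% of pH 5.5-specific and 48.7% of pH 7.0-specific peaks. With CK at pH 7.0 it was 19.3% of pH 5.5-specific and 23.7% of pH 7.0-specific peaks. The peaks specific to neutral pH in hypermethylated DNA thus met peaks of acidic demethylated DNA more often than those specific to acidic pH did. The median fold was 3.27 in the pH 5.5-specific and 3.28 in the pH 7.0-specific peaks. Their median widths were 210 and 310 bp, and their median −log10 q-values were 8.75 and 10.2. The part of strength and width in the overlap was not tested.

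**Figure D5:**
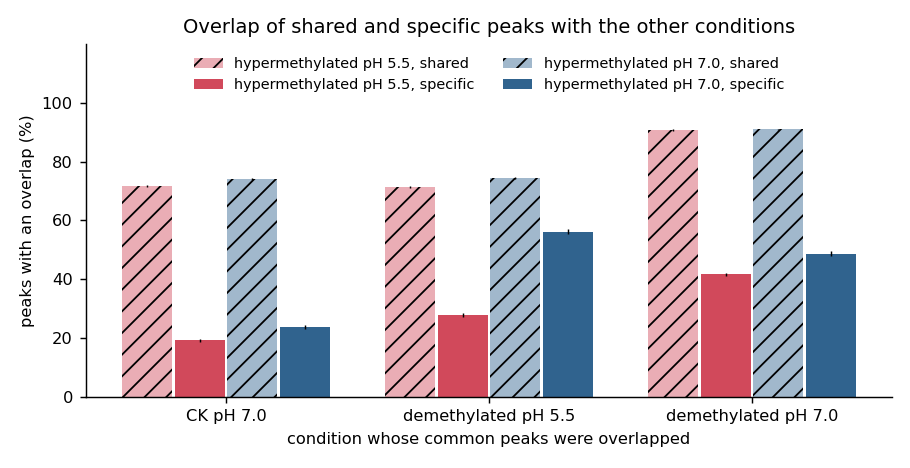
Percentage of shared (hatched) and specific (solid) common peaks at pH 5.5 (red) and pH 7.0 (blue) that overlap a common peak of CK at pH 7.0, demethylated DNA at pH 5.5 or demethylated DNA at pH 7.0; bars are 95% Wilson intervals (counting error only). The widest difference between the specific peaks is with demethylated DNA at pH 5.5, at 27.8% for pH 5.5 and 56.2% for pH 7.0.

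Peaks found nowhere else were mostly of pH 5.5. Of the pH 5.5-specific peaks, 9539 (40.7%) overlapped no common peak of the other 3 conditions, against 2841 (20.3%) of the pH 7.0-specific peaks. These shares are not like for like. The other conditions at pH 7.0 were CK and demethylated DNA, whereas at pH 5.5 there was demethylated DNA only. Of the shared peaks, 2.70% at pH 5.5 and 2.47% at pH 7.0 overlapped none. A common peak of demethylated DNA at pH 5.5 as the sole partner was found for 11.5% of pH 5.5-specific and 24.7% of pH 7.0-specific peaks. A partner in all 3 conditions was found for 5.87% of pH 5.5-specific and 11.3% of pH 7.0-specific peaks. Peak width bore on some of these overlaps. With demethylated DNA at pH 7.0, whose narrowest peak was 206 bp wide, 30.7% of pH 5.5-specific peaks under 199 bp and 49.5% of the wider ones overlapped. With demethylated DNA at pH 5.5 the shares were 27.4% and 28.1%.

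The same comparison of pH in demethylated DNA gave less similar peak sets. There, 35.6% of the peaks at pH 5.5 and 37.1% at pH 7.0 were specific, in contrast to 28.4% and 20.6% in hypermethylated DNA. The absolute summit shift had a median of 38 bp, against 21 bp in hypermethylated DNA, and Spearman's rho of the fold was 0.42, against 0.67. Across 100-kb windows, the numbers of common peaks at the 2 pH had a Pearson r of 0.46 and a Spearman rho of 0.43. The median log2 width ratio was -0.19. The smallest width was 121 bp at pH 5.5 and 206 bp at pH 7.0. In the 12 windows with the largest surplus in hypermethylated DNA, demethylated DNA had 139 peaks at pH 5.5, of which 50 were specific, and 213 peaks at pH 7.0, of which 125 were specific. The differences between the treatments were not tested.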

How the data were processed

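The series held 10 iMab IP, 5 IgG and 2 input libraries of rice genomic DNA. Per the labels, the authors aligned reads with BWA, filtered them with SAMtools and Picard and called peaks with MACS2 2.1.1. The study's methods add the MSU v7.0 genome, merging of the 2 IP libraries and paired-end peak calling. The deposited lists give each peak's position, summit, score (not used) and fold (a ratio, with a pseudocount of 1). They also give p-values and q-values of the authors' caller as −log10. Peaks were compared by position with Python 3.11.15, NumPy 2.4.6, pandas 2.3.3 and SciPy 1.17.1, and the overlap and distance functions were tested on simulated data with bedtools 2.31.1. Fold and p-value were solved for summit pileup and lambda at peaks with a −log10 p-value up to 250. All peaks tried had a solution. The lowest lambda of a list is its background coverage. Chromosome length was the largest peak end in any list. Peaks named in the text are, at each pH, the 3 specific peaks of highest fold with a −log10 q-value of at least 10 and no peak in either list of the other pH, the 3 highest and lowest fold ratios and largest summit shifts among pairs, the longest run, the largest group and the 3 windows of largest surplus. The peak sets, rules and lists were chosen with earlier results of these data known. Alternatives were each list alone (input-called or IgG-called), a stricter q-value (−log10 of 5 or more), an overlap of 50% of the shorter peak, pH 7.0 coverage scaled to pH 5.5, the top 20000 peaks, and other joining, window and pairing rules. Peaks of at least 199 bp, removal of the 12 windows and joining of pH 5.5 peaks were added after the data were seen. Sequence and genes under the peaks were not analysed here.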

Additional observations from a re-analysis of the deposited data

Results flagged for a closer look

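For 4 measures the difference between pH 5.5 and pH 7.0 had opposite signs in hypermethylated and demethylated DNA. Each rests on 1 merged list per condition, and the difference between the treatments was not tested. The log2 ratio of specific peaks was 0.75 in hypermethylated DNA (above 0 on 12 of 12 chromosomes) and -0.0048 in demethylated DNA (below 0 on 9 of 12). The numbers in demethylated DNA were almost equal, with 27020 at pH 5.5 and 27110 at pH 7.0. The difference of the median gaps was -573.5 bp in hypermethylated DNA (negative on 12 of 12 chromosomes) and 188 bp in demethylated DNA (positive on 9 of 12). The share of peaks in groups differed by 3.72 points in hypermethylated DNA (positive on 12 of 12 chromosomes) and by -1.59 points in demethylated DNA (negative on 8 of 12). The median log2 fold ratio of one-to-one pairs was -0.077 in hypermethylated DNA (negative on 12 of 12 chromosomes) and 0.59 in demethylated DNA (positive on 12 of 12). The first 3 of these changed direction or nearly vanished in hypermethylated DNA with peaks of at least 199 bp alone. That setting was not applied to demethylated DNA, whose lists also differed in their smallest width.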

How the results depend on the processing

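Values of pH 5.5 minus or over pH 7.0 are given, and one counts as moved when it left the SD over 12 chromosomes (for numbers of peaks, 1.5 times). None moved with an overlap of 50% of the shorter peak, with pH 7.0 coverage scaled to pH 5.5 or without the 12 windows. The last 2 settings could change little. The scaling dropped pH 7.0 peaks that fell below the lowest p-value of their list, and 13854 specific ones remained, against 13980. It called no peak anew and left all edges, summits and pH 5.5 peaks as they were. Without the 12 windows there were 47978 one-to-one pairs, against 48163. With all input-called peaks, the log2 ratio of specific peaks was 1.11, the gap difference -737 bp, the grouped share 6.42 points, the distance to shared peaks 149 bp, the share without a peak at the other pH 2.95 points and the overlap with demethylated DNA at pH 5.5 -33.6 points. With all IgG-called peaks, the log2 ratio was 0.89, the log2 width ratio -0.30 and the log2 fold ratio -0.12. With a −log10 q-value of at least 5, the log2 ratio was 0.50, the grouped share 2.09 points and the share without a peak at the other pH 20.7 points.

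With the top 20000 peaks of each set, equal by construction, there were 6976 and 7375 specific peaks at pH 5.5 and pH 7.0 and the log2 ratio was -0.080. The gap difference was 1407 bp, the grouped share -7.35 points, the distance to shared peaks 3365 bp, the contrast between CK-poor and CK-rich windows 30.3 points, the share without a peak at the other pH 10.3 points and the overlap with demethylated DNA -20.5 points. The summit shift was 15 bp, the log2 width ratio -0.27 and the log2 fold ratio -0.18. With peaks of at least 199 bp (added after seeing the data), the log2 ratio was -0.45 with 13617 pH 5.5-specific peaks, the gap difference -21 bp, the grouped share -0.49 points, the distance 123 bp, the window contrast 18.3 points, the share without a peak at the other pH 27.8 points and the log2 width ratio -0.20.

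A joining distance of 2000 bp gave 5.73 points. Between summits, the gap difference was -755 bp and the distance to shared peaks 107 bp. Windows of 1 Mb gave a contrast of 11.6 points. All overlapping pairs gave a summit shift of 27 bp, a log2 width ratio of -0.36 and a log2 fold ratio of -0.16. Apart from the construction of these settings, the cause of each change was not tested. No paired analysis was possible because the 2 IP libraries of each pH were merged before peaks were called. Widths and gaps are limited by the list minimum and weak peaks by a coverage near 10 fragments. The analysis of sequence was not run.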
